A study of Mus musculus with 8 samples.

Results

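The effect of the Bcl6 knockout in macrophages stimulated with lipopolysaccharide (LPS) was measured by setting the 2 arrays labelled Bcl6 knockout LPS against the 2 arrays labelled wild type LPS. The comparison took every probe that reached a detection p below 0.01 on 2 or more of these 4 arrays, 13192 of the 45281 on the array. Of these, 11514 had 1 gene symbol and 1678 had no gene name here. With each gene read by its brightest kept probe, the comparison covered 7727 genes of the 8306 fitted over the whole series. No measured difference between the groups was used to choose them.

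The study profiled primary macrophages grown from bone marrow, with or without LPS, on Illumina mouse bead arrays. Total RNA was labelled with biotin before hybridisation. The groups used here were Bcl6 knockout with LPS (Bcl6-/- on a C57Bl6/J background), wild type with LPS (C57Bl6/J background), Bcl6 knockout unstimulated and wild type unstimulated. All cells came from male mice of 10 weeks. Each group had 2 arrays that the labels call technical replicates, so n = 2 arrays a group throughout, and every p-value measures only the spread between technical replicate arrays. The labels used here state neither the dose and duration of LPS nor the number of mice.

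LPS is the lipid of Gram-negative bacteria that macrophages detect with Cd14 and Tlr4. The receptor signals through NF-kappaB and AP-1 to cytokine and chemokine genes, and through interferon regulatory factors and type I interferon to antiviral genes. Bcl6 is a DNA-binding repressor with zinc fingers that works by recruiting corepressors. It is best known from germinal-centre B cells, and in macrophages it is known to bind near many inflammatory genes that NF-kappaB activates. It recognises a DNA element that resembles the sites of Stat factors.

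On the 4 LPS arrays 11857 to 13029 probes were detected, the fewest on replicate 1 of the labelled knockout, and the median raw intensity was 113.7 and 112.1 on the labelled knockout arrays and 128.2 and 124.9 on the wild-type arrays. After normalization the 2 labelled knockout arrays correlated across genes with r = 0.993, the 2 wild-type arrays with r = 0.995 and arrays of different genotype with r from 0.940 to 0.942. Genes are not independent replicates, so these coefficients only describe the arrays. Of 18 macrophage identity genes with a probe, 17 were detected on all 4 arrays. Among defining markers of most other cell types few were detected, with 10 of 11 T cell, 6 of 7 B cell, 7 of 8 NK cell, 9 of 10 dendritic cell, 7 of 8 mast cell and 5 of 5 eosinophil markers undetected on every LPS array. Of 8 osteoclast markers 5 were undetected and 2 were detected on all 4 arrays. Granulocyte and precursor markers were the exception, with only 4 of 19 undetected, 9 detected on all 4 arrays, 1 on both labelled knockout arrays alone and 4 on both wild-type arrays alone. Precision is limited by the number of arrays. In bulk RNA, fewer cells of a type and less RNA per cell cannot be told apart.

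Of the 7727 genes, 6754 were detected on all 4 arrays, 179 on both labelled knockout arrays alone and 289 on both wild-type arrays alone. Genes detected on exactly 2 of the 4 arrays, just inside the rule, had a median log2 intensity of 5.94, and the 280 fitted genes detected on exactly 1, just outside it, had a median of 5.69. A gene that entered through 1 group alone differed in detection by that rule, which favours a called difference without forcing one. Of the 582 genes detected on exactly 2 of the 4 arrays, 257 were called. The total for genes detected on all 4 arrays is therefore also given below. The counts of gene lists include genes that entered through 1 group alone.

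Bcl6 itself was read by 1 probe. Its log2 intensity in labelled knockout LPS cells was 9.92 and 9.93, and in wild-type LPS cells 10.75 and 10.99. The groups did not overlap, and the fitted difference was -0.94 ± 0.13 (log2, limma standard error) with a limma adjusted p of 0.000616, short of the 2-fold change required for a call. In unstimulated cells the order was the opposite, with 12.60 and 12.33 in the labelled knockout against 10.95 and 10.92 in wild type. The probed transcript was thus present on every labelled knockout array. The labels do not give the deleted part of the gene, and a probe outside it would not check the genotype, so all directions below refer to arrays labelled knockout. Bcl6 is known to repress its own gene in B cells through elements at its start. A 200-base stretch ending at the base before one of its RefSeq starts (GRCm38.p6, chr16:23981284-23981483, minus strand) is shown because it holds 1 Bcl6-type element, TTCCTNGAA, and 2 further STAT-type elements, TTCNNNGAA, all in capitals. Every Bcl6-type match is also a STAT-type match.
Bcl6: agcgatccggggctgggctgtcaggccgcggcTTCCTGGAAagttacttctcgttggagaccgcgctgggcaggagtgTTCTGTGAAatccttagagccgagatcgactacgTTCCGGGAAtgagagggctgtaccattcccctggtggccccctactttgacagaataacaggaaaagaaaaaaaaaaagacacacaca

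Genes were called at a Benjamini-Hochberg adjusted p under 0.05 in the limma fit and a change of at least 2-fold. By that rule 908 of the 7727 genes were called, 504 higher and 404 lower in labelled knockout LPS macrophages than in wild-type LPS macrophages. Over all 8306 genes fitted, 11.2% were called, 6.19% higher and 4.97% lower. Every count of a gene list below is to be read beside these shares. Of the 6754 genes detected on all 4 arrays 579 were called, 338 higher and 241 lower. In 5774 of the 7727 genes the 2 groups did not overlap. The adjusted p passed for 3520 genes, of which 2612 changed by less than 2-fold. The median change over all fitted genes was -0.03 on the log2 scale. At least a 4-fold change was fitted for 118 genes higher and 68 lower, and at least an 8-fold change for 46 higher and 15 lower. With median scaling between arrays in place of quantile normalization, 314 genes were called higher and 759 lower. The median of all genes was then -0.29, and the split about that median was 517 higher to 395 lower.

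**Figure D1:**
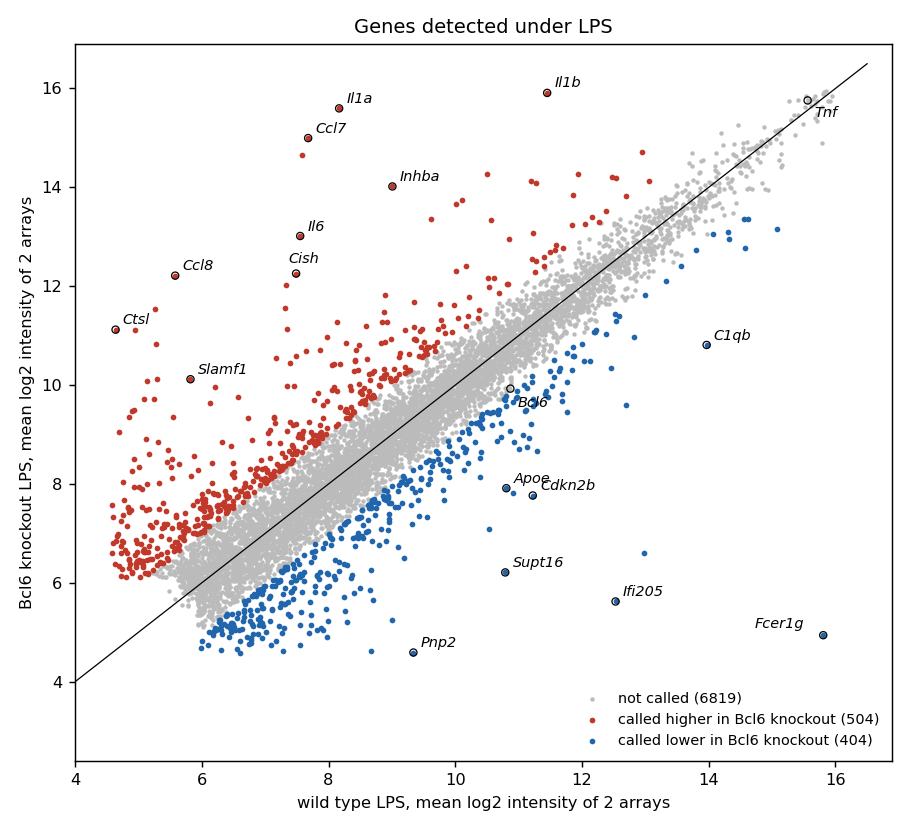
Mean normalized log2 intensity of each of the 7727 genes on the 2 arrays labelled Bcl6 knockout LPS (vertical axis) against the 2 wild-type LPS arrays (horizontal axis), with the line of equal values. Red points are the 504 genes called higher in the labelled knockout and blue points the 404 called lower; Tnf and Bcl6 are circled among the grey points that were not called.

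All 4 measured chemokines of the monocyte-attracting group were higher in labelled knockout LPS cells. Ccl7 had log2 intensities of 15.02 and 14.98 in labelled knockout LPS cells and 7.68 and 7.68 in wild-type LPS cells, a difference of 7.32 ± 0.10 (limma adjusted p = 1.87e-09). Ccl2, which encodes the chemokine MCP-1, had 14.72 and 14.57 in the labelled knockout and 7.47 and 7.68 in wild type. Ccl12 had 11.48 and 11.62 in the labelled knockout and 7.34 and 7.28 in wild type. Ccl8 was undetected on both wild-type arrays and read 12.25 and 12.18 on the labelled knockout arrays, at least 81.1-fold higher. For a probe undetected on both arrays of a group, the bound sets the bright group's mean against the higher of the lowest detected signal on each array and the probe's own signal. No array of one genotype came near the other for these 4 genes, and the median change of the list was 6.85, or 6.71 with undetected genes at their bound. The same 4 genes were also higher in unstimulated cells. A pair of stretches of 200 bases before a RefSeq start (GRCm38.p6, plus strand) are shown because these neighbours moved together, Ccl8 at chr11:82114985-82115184 and Ccl12 at chr11:82101645-82101844. Neither holds a Bcl6-type, STAT-type or NF-kappaB-type (GGNNTTTCC) element on either strand, so there are no capitals.
Ccl8: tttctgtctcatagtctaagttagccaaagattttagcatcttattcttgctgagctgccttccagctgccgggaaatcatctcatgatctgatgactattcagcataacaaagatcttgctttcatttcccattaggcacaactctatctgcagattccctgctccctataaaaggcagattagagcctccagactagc
Ccl12: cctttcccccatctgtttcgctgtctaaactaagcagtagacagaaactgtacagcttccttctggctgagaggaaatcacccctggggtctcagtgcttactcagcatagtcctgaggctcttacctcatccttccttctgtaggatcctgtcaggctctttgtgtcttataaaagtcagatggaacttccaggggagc

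Among the other CC chemokines 3 of 7 rose and 0 fell, with a list median of 0.32, and 1 rose without background correction. That median is the change of Ccl4 on the probe used, and its other probe changed by 1.44. In the labelled knockout and wild type the means were 15.85 and 15.53 for the Ccl4 probe used. They were 15.95 and 15.85 for Ccl3 and 15.75 and 15.58 for Ccl9. These 3 genes stood close to the top of the intensity range in both groups. Ccl6 had 11.25 and 11.31 in labelled knockout LPS cells and 8.02 and 8.24 in wild-type LPS cells. Ccl24 and Ccl17, which attract eosinophils and T cells, were undetected in wild type, with rises of at least 1.65-fold and 1.51-fold. Of 7 CXC chemokines 2 rose and 1 fell. Pf4, a chemokine best known from platelet granules, had 14.03 and 14.16 in the labelled knockout and 11.18 and 11.36 in wild type. It was the only detected gene of 7 erythroid and megakaryocyte markers with a probe. Cxcl14 changed by 3.20 ± 0.14 and Cxcl9, an interferon-gamma-induced attractant of T cells, by -1.85 ± 0.16. The neutrophil attractant Cxcl2 changed by 0.90 ± 0.13 on the probe used, below 2-fold, and by 1.46 on its other probe. For Cxcl10, another interferon-induced chemokine, the 2 probes differed in sign, at -0.43 on the brighter and 1.37 on the dimmer. Among chemoattractant receptors Cxcr4, the receptor for Cxcl12, was undetected in wild type, a rise of at least 5.78-fold. The formyl peptide receptor Fpr2 changed by -1.21 ± 0.12 and the complement receptor C5ar1 by -1.24 ± 0.12.

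Il1a encodes a cytokine that acts as an alarm signal, and it had 15.60 and 15.60 in labelled knockout LPS cells and 8.23 and 8.10 in wild-type LPS cells. Its second probe changed by 7.87, against 7.43 on the brighter one. Il1b, the secreted pyrogenic cytokine, had 15.86 and 15.96 in the labelled knockout and 11.47 and 11.43 in wild type. The receptor antagonist Il1rn, which blocks both, changed by 2.12 ± 0.12, and Il18 by 1.19 ± 0.10. In all, 5 of 11 measured genes of this family and its processing were higher and 1 was lower, and with median scaling 3 were higher. The exception was Casp4, which encodes the caspase that senses LPS in the cytosol, at -1.46 ± 0.11 on the probe that was brightest over all arrays.

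The Casp4 probes disagreed by more than those of any other of the 2975 genes with several kept probes. The probe used in the fit had 8.70 and 8.71 in the labelled knockout and 10.13 and 10.20 in wild type. A second probe read 4.58 and 4.83 in the labelled knockout, where it was undetected, and 12.56 and 12.48 in wild type. The remaining probe changed by -0.35. The second probe of Aim2, a sensor of cytosolic DNA, also went the other way, at -0.61 against the 1.12 of its brightest probe.

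Il6 had 12.95 and 13.09 in labelled knockout LPS cells and 7.45 and 7.66 in wild-type LPS cells, a difference of 5.46 ± 0.18 (limma adjusted p = 1.36e-07). Of 12 measured interleukins, Tnf and interferons 4 were higher and 1 was lower. Osm, the Il6-family cytokine oncostatin M, had 13.45 and 13.28 in the labelled knockout and 9.74 and 9.49 in wild type. Il12a, which encodes a subunit of interleukin-12, changed by 2.35 ± 0.13. Il23a was undetected in wild type, a rise of at least 4.38-fold. Ebi3, a subunit of other cytokines of that family, changed by -1.29 ± 0.12. Tnf itself had 15.77 and 15.75 in the labelled knockout and 15.65 and 15.47 in wild type, and its change of 0.20 ± 0.13 did not pass the test (limma adjusted p = 0.24). Tnf stood close to the top of the intensity range in both groups.

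Of 17 measured colony-stimulating and growth factor genes, receptors included, 9 were higher and 0 lower, beside 6.19% higher over all fitted genes. The list median was 1.12. Inhba, which encodes the activin A subunit, had 13.95 and 14.08 in labelled knockout LPS cells and 8.98 and 9.04 in wild-type LPS cells. Csf2 and Csf3, the growth factors of granulocytes and macrophages and of granulocytes, were undetected in wild type, with rises of at least 11.2-fold and 6.18-fold. Csf1, the survival factor of macrophages, had 11.17 and 11.21 in the labelled knockout and 8.50 and 8.67 in wild type. The epidermal growth factor relative Hbegf was undetected in wild type, a rise of at least 8.21-fold. Csf2, Csf3 and Hbegf thus entered the list through the labelled knockout arrays alone. Pdgfa, Pdgfb and the vasoconstrictor gene Edn1 changed by 1.98 ± 0.12, 1.12 ± 0.11 and 2.33 ± 0.11. In the tumour necrosis factor superfamily 6 of 14 rose and 0 fell, with a median of 0.45, or 0.36 with undetected genes at their bound. Without background correction 2 rose, and with median scaling 4 rose and 2 fell. The ligand gene Tnfsf13b and the receptor genes Tnfrsf10b and Tnfrsf12a changed by 1.15 ± 0.12, 1.55 ± 0.10 and 1.22 ± 0.23. The ligand genes Tnfsf14 and Tnfsf15 and the receptor gene Tnfrsf26 were undetected in wild type, with rises of at least 1.26-fold, 1.52-fold and 3.04-fold. These genes likewise entered through the labelled knockout arrays alone. Tnfrsf11b, the decoy receptor osteoprotegerin that blocks the osteoclast factor Rankl, was not in the list as fixed and was named for its size. It read 11.07 and 11.14 in the labelled knockout and was undetected in wild type, a rise of at least 37.6-fold.

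The stretches of 200 bases before a RefSeq start of Il6 (GRCm38.p6, chr5:30012914-30013113, plus strand) and Csf1 (chr3:107760470-107760669, minus strand) are shown because both genes rose and both stretches hold an NF-kappaB-type element in capitals. Counted backwards from -1 at the base before the start, the element begins at -43 in Il6 and at -154 in Csf1, and in Csf1 the match to GGNNTTTCC lies on the other strand.
Il6: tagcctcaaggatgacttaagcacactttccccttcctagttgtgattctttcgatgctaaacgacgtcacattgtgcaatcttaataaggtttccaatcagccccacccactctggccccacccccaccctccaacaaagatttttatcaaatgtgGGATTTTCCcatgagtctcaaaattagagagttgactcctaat
Csf1: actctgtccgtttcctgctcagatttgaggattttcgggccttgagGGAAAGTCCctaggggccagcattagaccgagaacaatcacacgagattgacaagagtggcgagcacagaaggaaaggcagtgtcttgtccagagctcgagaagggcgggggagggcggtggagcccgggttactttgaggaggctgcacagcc

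In windows from 250 bases before to 50 after each RefSeq start, searched on both strands, an NF-kappaB-type element was present for 45 of 393 genes called higher that had a window (11.5%) and for 26 of 327 called lower (7.95%). Among all 6361 measured genes with a window it was present for 490 (7.7%), and among all 27025 genes of the promoter table in 6.62%. A STAT-type element was present in 9.92% of genes called higher, 7.65% of those called lower and 8.71% of all measured genes. The narrower Bcl6-type element was present in 9 genes called higher, 3 called lower and 95 in all, or 2.29%, 0.917% and 1.49%. Of all windows of this length, 5.82% hold the NF-kappaB-type, 8.3% the STAT-type and 1.59% the Bcl6-type element. These are matches of letters and were not tested.

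**Figure D2:**
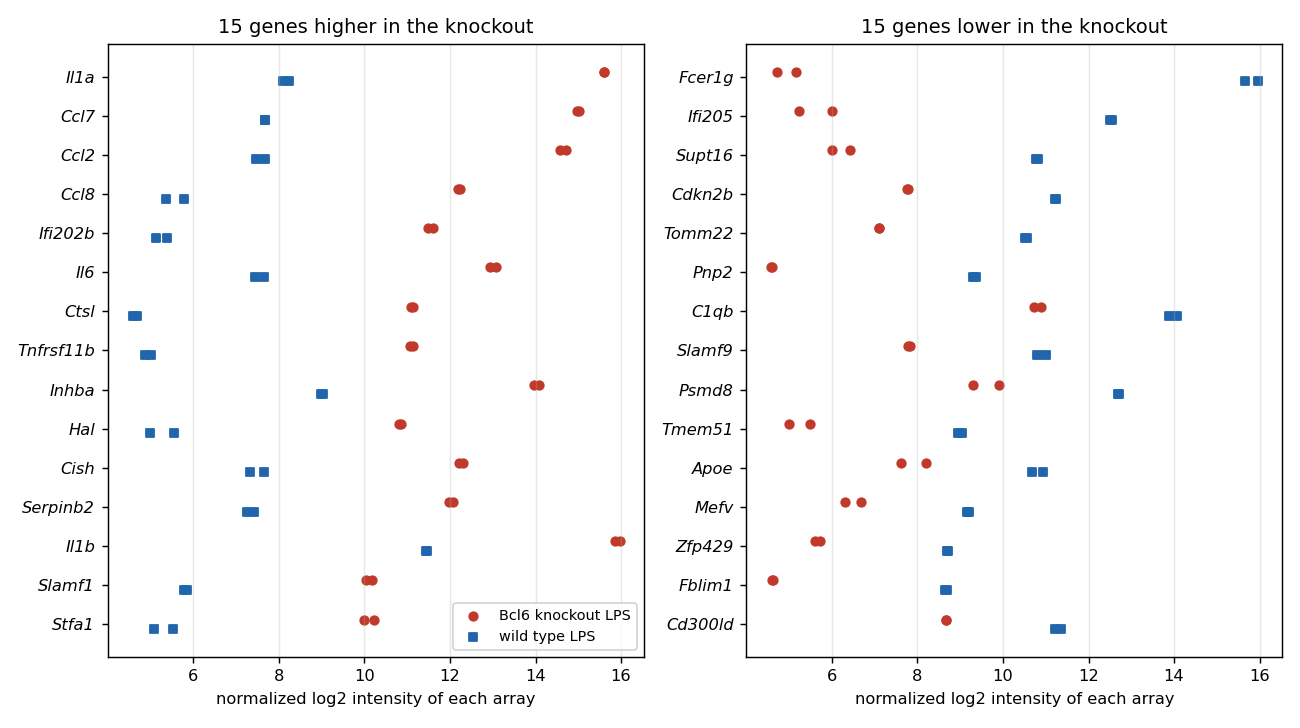
Normalized log2 intensity on each of the 2 arrays labelled Bcl6 knockout LPS (red circles) and the 2 wild-type LPS arrays (blue squares) for the 15 named genes that were higher in the labelled knockout (left panel) and the 15 that were lower (right panel). In all 30 genes the 2 arrays of a group lie closer to each other than to any array of the other group, and Fcer1g shows the widest gap.

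Genes outside the cytokine lists were among the 15 named as higher. Cish, a feedback inhibitor induced by Stat5, had 12.31 and 12.20 in labelled knockout LPS cells and 7.65 and 7.33 in wild-type LPS cells. Its relative Socs2 was undetected in wild type, a rise of at least 12.4-fold, and Socs3, which restrains Il6 signalling, changed by 1.65 ± 0.11. Of 16 Stat factors, Janus kinases and SOCS genes 4 were higher and 1, Stat4, was lower. Hal, which encodes histidine ammonia-lyase, was undetected in wild type, a rise of at least 31.1-fold. The lysosomal cysteine protease gene Ctsl was likewise undetected, at 4.59 and 4.69 in wild type against 11.10 and 11.15 in the labelled knockout, a rise of at least 38.05-fold on its single probe. The stefins Stfa1 and Stfa2, cytosolic inhibitors of such proteases, were higher by at least 18.9-fold and 18.4-fold. Stefins are near-identical copies, and a probe may read several of them. Slamf1, a receptor of the signalling lymphocyte activation family that also binds bacteria, had 10.19 and 10.05 in the labelled knockout and 5.79 and 5.85 in wild type.

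Of 15 measured plasminogen activators, matrix proteases and inhibitors 10 were higher and 0 lower, with a median of 1.42 (1.30 with undetected genes at their bound), beside the 6.19% higher over all fitted genes. Serpinb2, the inhibitor of plasminogen activators, had 11.98 and 12.08 in labelled knockout LPS cells and 7.25 and 7.42 in wild-type LPS cells. The urokinase gene Plau changed by 2.43 ± 0.11 and its receptor gene Plaur by 2.09 ± 0.13. The collagenase Mmp13 had 14.36 and 14.17 in the labelled knockout and 11.87 and 12.01 in wild type, and the macrophage elastase Mmp12 changed by 1.07 ± 0.10. Mmp3, Mmp8 and Mmp10 were undetected in wild type, with rises of at least 3.18-fold, 1.21-fold and 3.36-fold. They entered the list through the labelled knockout arrays alone. When probes had to be detected on at least 4 of the 8 arrays, 7 genes of the list were higher. The inhibitor Timp1 changed by 2.27 ± 0.16 and the aggrecanase Adamts4 by 1.30 ± 0.29.

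Of 20 effector enzymes 6 rose and 1 fell. Ptgs2, the inducible cyclooxygenase that starts prostaglandin synthesis, had 9.86 and 10.08 in labelled knockout LPS cells and 5.997 and 6.42 in wild-type LPS cells. Ptges, the synthase that completes prostaglandin E2, went the other way, with 8.94 and 8.57 in the labelled knockout and 11.04 and 11.23 in wild type. Of the others that rose, 3 act on arginine, the transporter Slc7a2 at 3.37 ± 0.16, the mitochondrial arginase Arg2 at 2.56 ± 0.21 and the nitric oxide synthase Nos2 at 1.17 ± 0.21. Ch25h, which makes an antiviral oxysterol, changed by 1.84 ± 0.12 and the amino acid oxidase Il4i1 by 1.65 ± 0.13.

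Genes of the pathway from LPS to these targets were called to different extents, beside the 11.2% called over all fitted genes. Of 25 Toll-like receptors, adaptors and kinases 1 was higher, the kinase Map3k7, and 1 was lower, Tlr8, and the median was -0.11. Tlr4 changed by 0.63 ± 0.11, below 2-fold, and Cd14 had 15.72 and 15.77 in the labelled knockout and 15.47 and 15.74 in wild type. Among 12 NF-kappaB subunits and inhibitors Nfkb2 and Rel rose, by 1.03 ± 0.14 and 1.00 ± 0.13, and 0 fell. Both changes lay at the 2-fold limit of a call. Without background correction 0 genes were called in this list and 0 in the Toll-like receptor list. Of 18 feedback and survival targets 3 rose, Ier3 at 2.93 ± 0.12, Birc3 and Tnfaip8, and Traf2 fell. AP-1 and immediate-early factors had 6 of 16 higher and 1 lower. Fosl2 had 11.28 and 11.27 in the labelled knockout and 8.99 and 8.87 in wild type, whereas Fos, at 6.97 and 7.17 in the labelled knockout, changed by -1.86 ± 0.12. Batf3 was undetected in wild type, a rise of at least 4.17-fold, and it was the only detected gene of the dendritic cell markers. Among phosphatases of MAP kinases and regulators of mRNA decay Dusp16 and Zfp36l1 rose and Dusp2 fell.

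Among antiviral genes more fell than rose. Of 39 measured type I interferon-stimulated genes 8 fell and 1 rose, beside 4.97% lower and 6.19% higher over all fitted genes. The list median was -0.45 against -0.03 over all genes. With median scaling 11 fell, and 5 fell when the test itself was set against a 2-fold change. The GTPase gene Mx1 had 7.56 and 7.61 in labelled knockout LPS cells and 9.48 and 9.12 in wild-type LPS cells. The helicase Dhx58, the nucleic acid sensor Zbp1, the synthetase Oas3 and the leucine-zipper protein Ifi35 changed by -1.50 ± 0.11, -1.51 ± 0.17, -1.22 ± 0.15 and -1.66 ± 0.12. In each of them the groups did not overlap, which was also so for 74.7% of the 7727 genes. Oasl1, a translational inhibitor of Irf7, was the gene that rose, by 1.03 ± 0.12. Of 7 interferon regulatory factors limma called 0, with a median of -0.31, although 5 had an unadjusted p under 0.05 and 4 an adjusted one, with changes below 2-fold. Of 10 guanylate-binding proteins and immunity-related GTPases, Gbp7 was higher and 0 were lower.

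Of 9 measured genes of the p200 family of interferon-inducible DNA sensors and nuclear proteins, collected by symbol after their values were seen, 2 were higher (Aim2 and Ifi202b), 5 were lower and 2 were not called. Ifi205 had 5.23 and 6.02 in labelled knockout LPS cells and 12.51 and 12.55 in wild-type LPS cells, a difference of -6.91 ± 0.23 (limma adjusted p = 1.4e-07), and its 3 probes ranged from -6.91 to -1.46. Ifi204 and Ifi211 were undetected in the labelled knockout and at least 3.21-fold and 1.47-fold lower. Ifi202b read 11.48 and 11.61 in the labelled knockout and was undetected in wild type, a rise of at least 50.9-fold on the probe used. Members of this family are closely similar in sequence, so probes may cross-react.

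The deepest decrease was that of Fcer1g, the gamma chain through which activating Fc receptors signal. It had 5.17 and 4.71 in labelled knockout LPS cells, undetected on both arrays, and 15.66 and 15.95 in wild-type LPS cells, near the top of the range, and was at least 868.7-fold lower. The value rests on a single probe, and it was equally low without LPS, at 4.91 and 4.94 in the labelled knockout against 15.65 and 15.61 in wild type. Fcgr3, a receptor that needs this chain at the surface, had 13.64 and 13.67 in the labelled knockout and 10.09 and 9.93 in wild type. The inhibitory receptor Fcgr2b changed by 1.15 ± 0.11, with probes from -0.88 to 1.39. These were the only called genes among 12 of the Fc receptor list.

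C1qb, a chain of the C1q complex that starts the classical complement pathway, had 10.89 and 10.73 in labelled knockout LPS cells and 14.06 and 13.87 in wild-type LPS cells, and C1qc, which joins it in the C1q complex, changed by -1.84 ± 0.16. The remaining chain, C1qa, changed by -0.94 ± 0.16, below 2-fold. Complement factor B, Cfb, rose by 1.87 ± 0.13. Among 16 lipid handling genes of the LXR and PPAR receptors 7 fell and 2 rose, beside 4.97% and 6.19% over all fitted genes. The list median was -0.48, or -0.28 with undetected genes at their bound. When the test itself was set against a 2-fold change 3 fell. Apoe, the apolipoprotein that exports cholesterol, had 8.21 and 7.62 in the labelled knockout and 10.68 and 10.94 in wild type. Nr1h3, which encodes LXR-alpha, fell by 1.57, Srebf1 by 1.30, Pparg by 1.09 and the lipid droplet gene Plin2 by 1.20 on the log2 scale. The apolipoprotein gene Apoc2 was undetected in the labelled knockout and at least 3.21-fold lower. The desaturase Scd1 and the fatty acid carrier Fabp5 rose.

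Other decreases among the 15 named genes fell outside these lists. Cdkn2b, an inhibitor of Cdk4 and Cdk6, had 7.78 and 7.76 in labelled knockout LPS cells and 11.21 and 11.24 in wild-type LPS cells, and the inhibitor Cdkn1c changed by -1.93 ± 0.11. Tomm22, a receptor for import into mitochondria, had 7.09 and 7.09 in the labelled knockout and 10.56 and 10.52 in wild type. The proteasome subunit gene Psmd8 changed by -3.09 ± 0.18, Mefv, the pyrin gene, by -2.68 ± 0.14, and Slamf9 by -3.10 ± 0.12. Supt16, a chaperone of histones, changed by -4.58 ± 0.16 on the brighter probe and by 0.31 on the other, and the 2 probes are not reconciled by these data. Pnp2, a purine nucleoside phosphorylase gene, Tmem51, Zfp429 and Fblim1 were undetected in the labelled knockout, with decreases of at least 9.81-fold, 7.76-fold, 6.31-fold and 6.18-fold. Cd300ld, a myeloid immunoglobulin-like receptor, changed by -2.61 ± 0.11.

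Macrophage identity and other cell type markers were counted beside these results. Of 17 macrophage identity genes 3 fell, C1qb, C1qc and Aif1, and 0 rose. Their summed linear intensity was 272160 and 254378 in labelled knockout LPS cells and 287567 and 310424 in wild-type LPS cells. Among 15 granulocyte and precursor markers the granule genes Camp, Ngp and Elane and the surface marker Cd177 fell, and Mmp8 and the receptor gene Csf3r rose. Without background correction 2 fell and 0 rose, and with median scaling 7 fell and 1 rose. Their summed intensity under LPS was 14286 and 15009 in the labelled knockout and 23609 and 23759 in wild type. In unstimulated cells 11 of the 15 were called lower in the labelled knockout and 0 higher, beside 8.5% called over all fitted genes. The difference between the effects with and without LPS, described below, was called higher under LPS for 6 of the 15 and lower for 0. The part of granulocyte precursors in the other differences was not tested.

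The remaining lists stand beside the same 11.2% over all fitted genes. Of 15 glycolytic genes limma called 0, with a median of -0.50; 12 had an unadjusted p under 0.05, 10 an adjusted one, 8 of these lower, and with median scaling 4 fell. Of 26 respiratory chain subunits 2 rose, Sdhd and Cox7b, and of 27 cell cycle genes 3 rose, Tyms, Tpx2 and Rrm2. In the MHC class II list H2-Ab1 and H2-Eb1 were the 2 of 8 that fell, and in the class I list H2-M2 was the 1 of 22 that rose. Of 13 measured genes for Bcl6, its relatives and corepressors limma called 0, and 6 had an unadjusted p under 0.05. Of 11 measured genes known as B-cell targets of Bcl6 repression 2 rose, the cyclin gene Ccnd2 at 1.31 ± 0.11 and the survival gene Bcl2l1 at 1.45 ± 0.14, and the median was -0.01. For Bcl2l1 the probes ranged from 0.06 to 1.45. Costimulatory genes went both ways, with Slamf1, Havcr2 and Cd86 higher and Cd48 and Slamf9 lower among 14. Of 10 lectins and scavenger receptors 3 rose, Clec4n, a sensor of fungal mannans, at 3.77 ± 0.12, the mannose receptor Mrc1 and the beta-glucan receptor Clec7a. The 2 probes of Clec7a differed in sign, at 1.15 on the brighter and -0.31 on the dimmer. With median scaling 1 gene of this list rose.

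**Figure D3:**
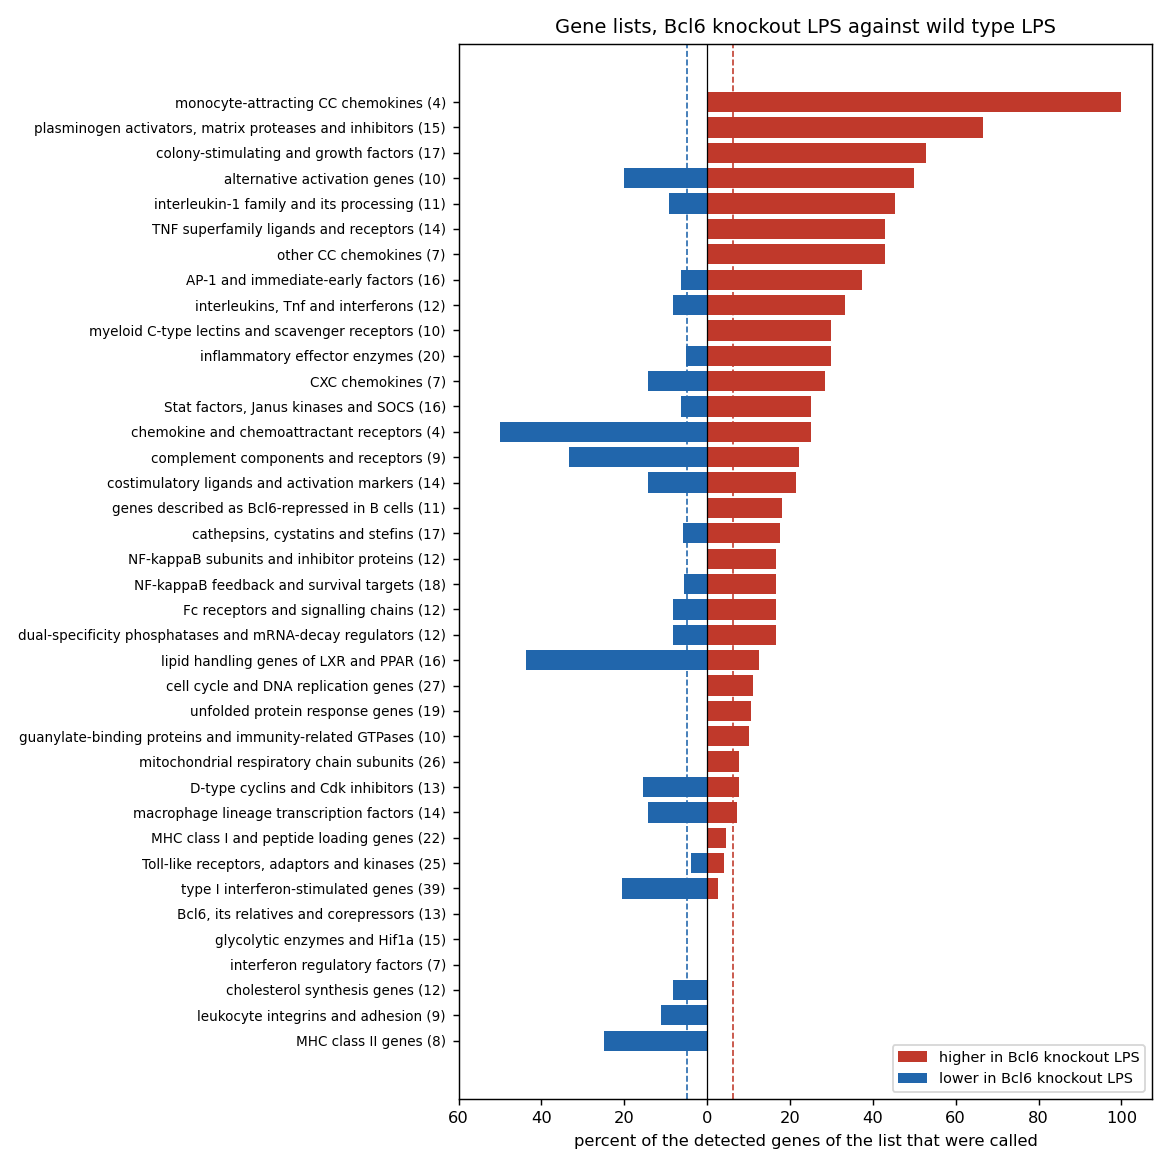
Percent of the measured genes of each list called higher (red, to the right) and lower (blue, to the left) in cells labelled Bcl6 knockout LPS against wild type LPS, with the number of measured genes in brackets. Dashed lines mark the 6.19% and 4.97% called over all fitted genes; all 4 monocyte-attracting chemokines and 10 of 15 protease and inhibitor genes were higher, and 7 of 16 lipid handling genes were lower.

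The effect under LPS was then set beside the effect of the knockout in unstimulated cells, which uses other arrays. In unstimulated cells 706 genes were called, 8.5% of those fitted. Of the 504 genes higher under LPS 242 were also called higher without it, which is 48.0% of the first list and 64.2% of the 377 higher without LPS. Of the 404 genes lower under LPS 203 were also lower without it, or 50.2% of the first list and 61.7% of the 329. The genes called in opposite directions numbered 0 each way. Across the 7727 genes the 2 effects had r = 0.79, a description of genes that share the same 2 genotypes.

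The difference between the effects was tested directly in the same limma fit. It was called for 298 of the 7727 genes, higher under LPS for 153 and lower for 145. Over all fitted genes 1.96% were called higher and 1.87% lower. Of the 908 genes called under LPS, 187 were also called for this difference and 721 were not, which does not show that their effects were equal. Of the 504 genes higher under LPS, 108 had a more positive effect there than without LPS and 9 a less positive one. Of the 404 lower under LPS, 66 had a more negative effect there and 4 a less negative one. These genes were picked by their effect under LPS, which is itself a term of the difference. That choice alone tilts both splits, so no conclusion is drawn from them. Over all 7727 genes the split was 153 to 145.

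Il6 showed the widest rise of this kind, with 12.95 and 13.09 in labelled knockout LPS cells and 7.45 and 7.66 in wild-type LPS cells, but 5.34 and 5.87 in labelled knockout unstimulated cells and 4.83 and 4.97 in wild-type unstimulated cells. The difference of effects was 4.75 ± 0.25 (limma adjusted p = 3.44e-05), with Il6 undetected on both wild-type unstimulated arrays and on 1 of the 2 labelled knockout ones. Slamf1, Csf2, Ptgs2, Csf3, Ptx3 and Mmp3 were undetected on all 4 unstimulated arrays, so a knockout effect could be measured for them only under LPS. Of these, Csf2, Csf3, Ptx3 and Mmp3 were also undetected in wild-type LPS cells, and the rise of Ptx3, which encodes a secreted pattern-recognition protein, was at least 5.24-fold. Among the monocyte-attracting chemokines the difference was called for Ccl7, at -1.53 ± 0.14 (limma adjusted p = 0.000637), and not for Ccl2, Ccl8 or Ccl12. Without LPS Ccl7 had 13.98 and 13.95 in the labelled knockout and was undetected in wild type, at least 270.4-fold higher. Under LPS its fitted rise was 159.6-fold. The called difference for Ccl7 rests on the undetected signal, and with the bound it falls short of 2-fold. Inhba was detected on all 8 arrays, and its difference of 0.48 ± 0.18 was not called.

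Among genes with a more negative effect under LPS, Ifi205 and Pnp2 were highest in wild-type LPS cells. Ifi205 was detected on both wild-type LPS arrays, on 1 array each of labelled knockout LPS and wild-type unstimulated cells, and on neither labelled knockout unstimulated array. Pnp2 was detected on the wild-type LPS arrays alone. It had 4.57 and 4.61 in labelled knockout LPS cells and 9.30 and 9.37 in wild-type LPS cells, against 4.57 and 4.59 in labelled knockout unstimulated cells and 5.30 and 5.04 in wild-type unstimulated cells. Rasgrf1, an exchange factor for Ras, was likewise detected on the wild-type LPS arrays alone, at 7.96 and 7.87, and was at least 3.65-fold lower in labelled knockout LPS cells. The transcription factor gene Sox4 was undetected in wild type in both states, and in the labelled knockout it had 6.28 and 6.39 with LPS and 8.51 and 8.70 without. Plau was higher in the labelled knockout in both states and by less under LPS. Plau had 11.31 and 11.23 in labelled knockout LPS cells and 8.87 and 8.82 in wild-type LPS cells, and 12.21 and 12.26 in labelled knockout unstimulated cells against 7.82 and 7.68 in wild-type unstimulated cells.

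**Figure D4:**
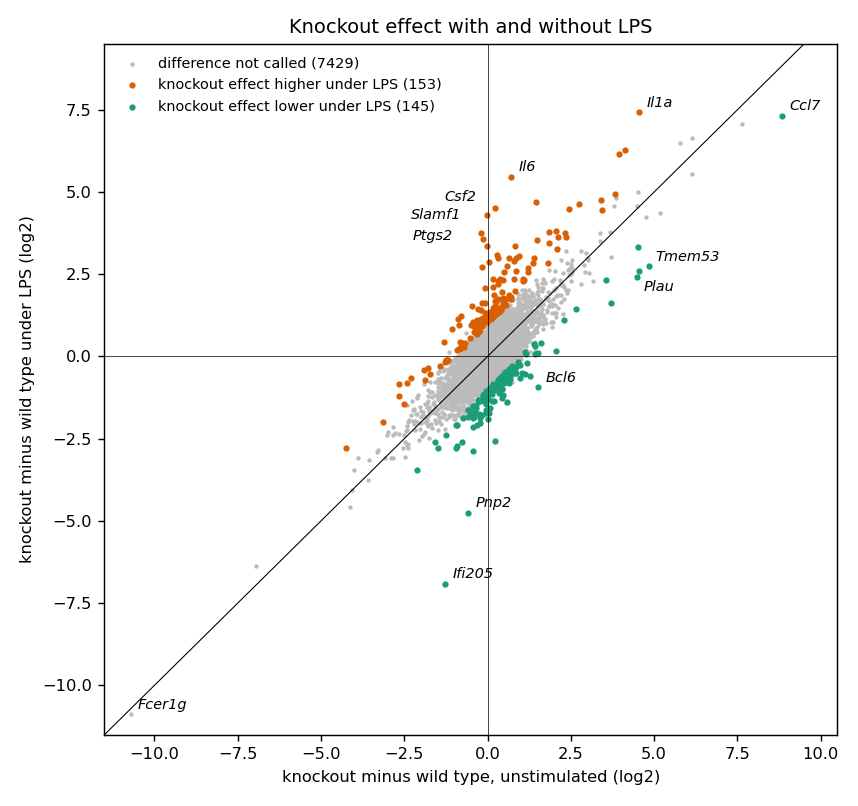
Fitted knockout minus wild type change under LPS (vertical axis, log2) against that in unstimulated cells (horizontal axis, log2) for 7727 genes, with the line of equal effects. Orange points are the 153 genes whose effect was higher under LPS, such as Il6 and Csf2, and green points the 145 whose effect was lower, such as Ifi205 and Pnp2; Fcer1g lies on the line.

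**Figure D5:**
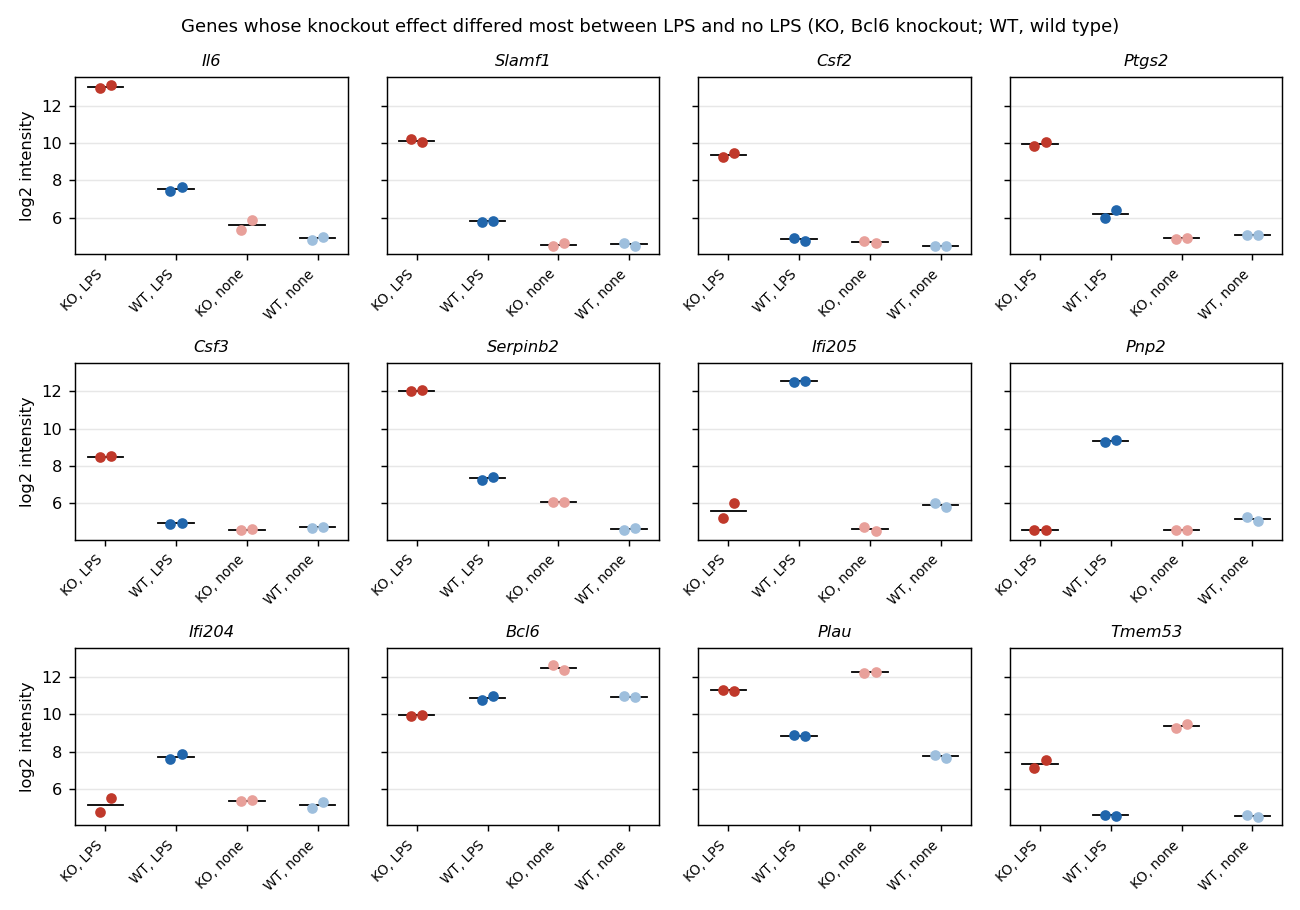
Normalized log2 intensity on all 8 arrays for 12 genes whose knockout effect differed between LPS and no LPS, by group, with points for the 2 arrays and a bar for their mean (KO, labelled Bcl6 knockout; WT, wild type). Il6, Slamf1, Csf2, Ptgs2, Csf3 and Serpinb2 are highest in labelled knockout LPS cells, and Ifi205, Pnp2 and Ifi204 in wild-type LPS cells.

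Of the 908 called genes 642 rest on a single kept probe. Of the 266 with several, all probes changed by at least 2-fold in the same direction for 103, and at least 1 probe had the opposite sign for 46. The median standard error of a log2 change was 0.13. Probes without a gene name here were called at 12.4%, 208 of 1678, the same share as named probes.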

How the data were processed

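The authors deposited a raw mean bead intensity and a detection p-value for each of 45281 probes on 8 arrays, with detection p-values in steps of 1 in 936, and a second table of processed intensities whose normalization no label states. The submitters' processing notes name GenomeStudio. Here limma 3.58.1 in R 4.3.3 corrected the background of the raw intensity (nec, offset 16) and normalized log2 values between arrays by quantiles. A probe was kept if 2 or more of the 8 arrays detected it at p below 0.01 (14418 probes). Names came from the platform annotation updated through RefSeq (GRCm38.p6), with 10396 probes without a single gene name. RefSeq promoters were matched by symbol. The brightest kept probe stood for each gene, and 1 limma model with 4 group means was fitted (4 residual and 4.57 prior degrees of freedom) and adjusted by Benjamini-Hochberg over 8306 genes within each contrast. Arrays have no read depth.

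Bcl6 was named first. Up to 15 called genes in each direction followed by size of change, if both arrays of the brighter group detected them and the groups did not overlap, ranked by bound where the dimmer group was undetected. For the difference of effects up to 8 in each direction were named, and for each list the called and the largest other members. Clone-like names were passed over. The genes, lists and tests were chosen with earlier results of these data known. Equal replicate numbers did not pair arrays (r of deviations from -0.04 to 0.01 over 6 pairs of groups). Simulated data for this comparison covered 8306 genes. The fit recovered 91 of 100 genes at a change of 1.5 log2 units and 100 of 100 at 3. It made 0 false calls. Each group holds only technical replicate arrays, so no spread between mice or cultures was available to the simulation. Its count of false calls therefore cannot show how many of the called genes would hold in other mice or cultures. Alternatives changed the background, scaling, filter, probe choice, arrays and test.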

Additional observations from a re-analysis of the deposited data

Results flagged for a closer look

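The difference of the knockout effect, LPS minus unstimulated, passed the limma test and exceeded 2-fold for 16 named genes, which is why they are listed. Values are log2 differences of fitted effects and are not bounded where a group was undetected, which holds on both arrays of 1 or more groups for 14 of the 16, all except Bcl6 and Plau. The effect was higher under LPS for Il6 (4.75), Slamf1 (4.31), Csf2 (4.29), Ptgs2 (3.95), Csf3 (3.69), Ptx3 (3.4), Serpinb2 (3.24) and Mmp3 (2.89). It was lower under LPS for Ifi205 (-5.63), Pnp2 (-4.16), Ifi204 (-2.81), Bcl6 (-2.47), Rasgrf1 (-2.43), Tmem53 (-2.1), Sox4 (-2.06) and Plau (-2.05).

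Probes with no gene name here lie outside the comparison of genes, and 208 of them were called in the limma fit over every probe, 114 higher and 94 lower in the labelled knockout.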

How the results depend on the processing

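Under LPS 908 genes were called. The total was 412 without background correction (411 of them among the 908), 419 in the authors' processed table (418 among the 908) and 342 when the test itself was set against a 2-fold change. With every kept probe counted on its own, 1637 probes were called. The difference of effects, called for 298 genes, gave totals of 121, 117 and 30 under the same settings, 561 probes, and 190 with a background offset of 50. Leaving out each array in turn gave 887 to 958 genes under LPS and 244 to 277 for the difference. The fit with the replicate number as a block gave 908 and 295 genes. The numbers pair no samples. The Bcl6 probe passed 2-fold with median scaling, at -1.263 or -0.975 relative to the median of all genes, and without replicate 1 of wild type LPS, at -1.06; leaving out each array gave -1.06 to -0.82. The 41 named genes kept their direction in all 839 values taken over the alternatives. The only calls lost were those of Sox4 without background correction (0.72), with an offset of 50 (0.94) and in the authors' table (0.78). Of 78 counts of list members called in 1 direction, 32 moved by at most 1.5 times under every alternative and 46 by more, or off 0. List medians moved most with median scaling, which lowered the median of all genes to -0.29. The causes were not tested. Folds of dim probes are limited by background, and the p-values leave out any spread between mice or cultures.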

Other observations

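Some genes were read by probes that differed widely in the size or the sign of the change, and these were picked after their values were seen. Of 2975 genes with several kept probes, the probes of 16 differed by at least 3 log2 units and those of 440 by at least 1. For Mgst1, a glutathione transferase gene, one probe read 4.82 and 4.92 in labelled knockout LPS cells, where it was undetected, and 10.49 and 10.51 in wild-type LPS cells, and the other read 12.46 and 12.58 in the labelled knockout and 11.33 and 11.21 in wild type. For Atf4, a stress-response transcription factor gene, the probes changed by -3.41 and 0.12. For the replication gene Mcm6, 1 of 3 probes was undetected in labelled knockout LPS cells, at 4.73 and 4.69, and read 8.69 and 8.70 in wild-type LPS cells, and the others changed by -0.67 and -0.09. For Ctse, the aspartic protease cathepsin E, a pair of probes changed by 0.99 and 5.44, and the remaining one read 9.48 and 9.40 in the labelled knockout and was undetected in wild type. In unstimulated cells the same probes of Mgst1 and Mcm6 were undetected in the labelled knockout and detected on both wild-type arrays, the divergent probe of Atf4 changed by -3.48, and the Ctse probe at 5.44 under LPS changed by 6.08. For Slamf7 the probes changed by -3.83 and -0.72.

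Called genes were also neighbours of one another in places. In windows of 20 measured genes along the RefSeq order, the median number called under LPS was 2, the highest was 11, and 0.736% of windows held 8 or more. The window with 11 ran from Cd48 to Ifi202b and held Slamf1, Vangl2, Aim2 and Ifi202b higher and Cd48, Slamf9, Dusp23, Ifi213, Ifi207, Ifi204 and Ifi211 lower. A window from Fam162a to Timmdc1 held 10, with 9 higher, among them the stefin genes and Cd86, and 1 lower, Hcls1. In the promoter table Stfa1 lies on chromosome 16, as does Bcl6. A window from Ccl2 to Wfdc18 held 8, all higher. Windows overlap, and no test was made.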
